A study of Homo sapiens with 6 samples.

Results

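The genes of the large ribosomal subunit proteins were examined in lists of sites where GAPDH, the glycolytic enzyme glyceraldehyde-3-phosphate dehydrogenase, had been crosslinked to RNA. Members were the genes whose symbol is RPL with a number, with or without the endings A, L, AL or X, or RPLP0, RPLP1 or RPLP2. RPL13A and all pseudogenes were left out. Of 49 protein coding genes with such a symbol in GENCODE release 44, 31 had a peak in at least 1 list, and these were 31 of the 947 genes named in the lists. For comparison, 21 of 35 small subunit protein genes and 560 of 19701 protein coding genes had a peak. The data came from CLIP-seq of MOLM-13, a human acute myeloid leukaemia cell line, grown under galactose, low glucose or normal glucose conditions. Crosslinked GAPDH was precipitated with a polyclonal antibody, and the RNA was digested with RNase T1, which cuts after G. The submitters' extraction notes describe a total RNA library, so the reading of the lists as CLIP sites rests on the series' own description and the study's methods. The series held 6 samples, 2 for each medium, and the authors had joined both samples of a medium into 1 list of peaks. A comparison between the lists asks on which places of an RNA GAPDH was found as the sugar supply changed.

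The large (60S) subunit carries the centre that joins amino acids and the tunnel through which the new protein leaves. The mRNAs of its proteins are among the most abundant of a growing cell, and most begin with a C followed by a run of pyrimidines, the 5' terminal oligopyrimidine (TOP) stretch through which mTOR signalling controls their translation. Many of these genes carry small nucleolar RNAs (snoRNAs), guides for the modification of ribosomal RNA, in their introns, and most have left processed pseudogenes, copies of the spliced mRNA, elsewhere in the genome.

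The lists hold positions and gene names only. They carry no read counts, scores or strands, so the depth behind a peak is unknown, RNA levels cannot be set beside the peaks, and with 1 list for each medium no spread between cultures exists and no test was made. Shares are given with exact 95% binomial (Clopper-Pearson) intervals, which cover counting error over peaks only. Peak shares over all lists count a site again for each list that holds it, as with the identical RPL28 peak of low and normal glucose. Several peaks can also come from the same gene. The intervals treat all peaks as independent, so they can be too narrow, also where sets of genes are compared. Positions cannot test the label of the cells either: of 14 myeloid marker genes only the transcription factor CEBPA had a peak, in low glucose, and of 7 markers of other lineages none had a row. No list of a control precipitation was analysed here.

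The sequences around the middle of a peak are shown first, because several of the members' peaks sat at the same kind of place. For isolated crosslink sites the authors had extended the site to a fixed length, which gave peaks of 101 nt, called single-site peaks here, and the middle of such a peak was taken as the site. In 7 of the 72 member peaks, on 6 genes, the middle lay 1 to 3 nt before the annotated first base of the canonical transcript. These middles thus lay just outside that transcript, and the distance depends on the annotated start chosen. In RPL10 the middle lay 2 nt after the start of another coding transcript. Each line below gives 30 bases of hg38 (GRCh38) on the strand of the gene, 5' to 3', with the middle of the peak at base 15 and the unbroken run of pyrimidines that opens the annotated transcript in capitals. The identical RPL28 peak of low and normal glucose is shown as 1 line.
RPL10, low glucose, chrX:154398360-154398389, plus strand: cgcaggcggaggagcgcCTCTTTCCCTTCg
RPL12, normal glucose, chr9:127451393-127451422, minus strand: tccgcgcgatttccggCCTCTCggctttcg
RPL28, low and normal glucose, chr19:55385916-55385945, plus strand: ctcgcccctcgccttcCTCTTTCCgtctca
RPL37A, galactose, chr2:216498827-216498856, plus strand: gcgcaccgcgtctcttcCTTTCTgggctcg
RPL38, low glucose, chr17:74203663-74203692, plus strand: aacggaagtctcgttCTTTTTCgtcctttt
RPL5, galactose, chr1:92832023-92832052, plus strand: tgcgcaagggctgtggcCCTTTTCCCaccc

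All 6 of these transcripts began with C, and their pyrimidine runs were 6 to 12 bases long with a median of 7.5. The run is a property of the family rather than of these 6 genes. Among the 49 annotated members 34 (69.4%) began with C and a run of at least 4 pyrimidines, with a median run of 7, against 26 of 35 (74.3%) small subunit protein genes and 1139 of 19701 (5.78%) protein coding genes. The 22 members that had peaks only away from the start had a median run of 7, and the 18 members without a peak a median of 6. These lines and the other printed sequences, apart from the RPL28 start and the shared RPL32 site, were chosen after the values had been seen.

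A second set of sites lay at the 5' ends of snoRNAs. In the 3 lines below the capitals are the first bases of the snoRNA gene, and the middle, again base 15, lay 2 nt before its first base in each.
RPL10 with SNORA70, galactose, chrX:154400265-154400294, plus strand: tggttcttgggatgctCCGCAGCCAATTAA
RPL5 with SNORA66, normal glucose, chr1:92840703-92840732, plus strand: gactgttggtgtaattGTGCAAACTCGATC
RPLP2 with SNORA52, low glucose, chr11:811665-811694, plus strand: ctttcgtttgttttcaTGGTCCATCCTAAT
The single place of the family met by all 3 lists lay inside SNORA7A, in an intron of the canonical RPL32 transcript. The 112 bases common to the 3 peaks were all bases of that snoRNA.
RPL32 with SNORA7A, chr3:12840319-12840430, minus strand: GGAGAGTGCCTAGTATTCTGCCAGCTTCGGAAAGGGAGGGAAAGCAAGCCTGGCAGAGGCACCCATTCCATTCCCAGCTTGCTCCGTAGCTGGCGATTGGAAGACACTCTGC

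The third set lay in coding sequence. Here the capital is the base just before the middle, at base 14, and normal glucose sites with G in that place are shown with 1 site each from galactose and low glucose that had another base. The lines were thus picked by this base. Among single-site coding peaks with all genes on the same strand, G stood there in 15 of 18 in normal glucose. In low glucose it did so in 2 of 6 and in galactose in 0 of 4.
RPLP0, normal glucose, chr12:120199131-120199160, minus strand: ggaggacctcactGagatcagggacatgtt
RPL11, normal glucose, chr1:23695795-23695824, plus strand: caggtgctgggtaGgccaggtttcagcatc
RPL23, normal glucose, chr17:38852621-38852650, minus strand: ggtgatggccacaGtcaagaaaggcaaacc
RPL26, normal glucose, chr17:8382154-8382183, minus strand: acgtgcgatccatGcccatccgaaaggatg
RPL31, normal glucose, chr2:101004179-101004208, plus strand: tcgggcactcaaaGagattcggaaatttgc
RPL23A, galactose, chr17:28720718-28720747, plus strand: cctaaagctgaagCcaaagcgaaggcttta
RPL13, low glucose, chr16:89561270-89561299, plus strand: cccgcgtcgggtcCcatccggcccatcgtg

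The members held 13 of 337 peaks in galactose (3.86%, interval 2.07 to 6.51%), 29 of 484 in low glucose (5.99%, interval 4.05 to 8.49%) and 30 of 495 in normal glucose (6.06%, interval 4.13 to 8.54%). The galactose list was the lowest of the 3, and its interval overlapped those of both others. These peaks fell on 12, 18 and 19 member genes. The small subunit genes held 23, 32 and 23 peaks, on 14 genes in each list, so that the large subunit share was below the small subunit share in galactose (6.82%, interval 4.38 to 10.1%) and above it in normal glucose (4.65%, interval 2.97 to 6.89%), again with intervals that overlapped.

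**Figure D1:**
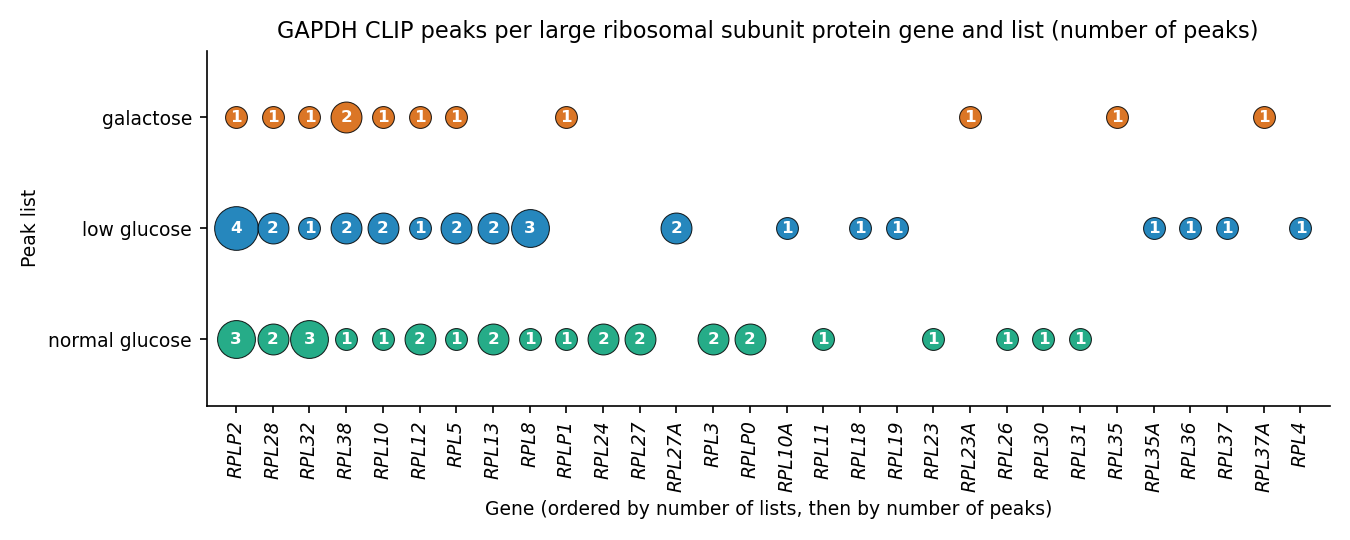
Number of peaks on each of 30 of the 31 member genes (columns, ordered by number of lists and then of peaks) in each of the 3 lists (rows), with the number in each circle and circle area in proportion to it. The 7 genes at the left, from RPLP2 to RPL5, have a peak in every list, and RPLP2 holds the most peaks with 8.

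Of the 31 genes, 7 (22.6%) had a peak in all 3 lists: RPL5, RPL10, RPL12, RPL28, RPL32, RPL38 and RPLP2. Over all 947 genes with a peak the share was 15.7%, and over the 507 protein coding genes outside both subunits it was 11%. Over the 21 small subunit genes it was 8 genes (38.1%). A further 4 members were met by 2 lists, and 20 by 1 list, which was the galactose list for 3, the low glucose list for 8 and the normal glucose list for 9. A gene in all 3 lists did not mean a shared site. When overlapping peaks were merged, the 72 member peaks made 58 regions, and 1 of these (1.72%, interval 0.0436 to 9.24%) was met by all 3 lists. The share was 11% of the 951 regions of all genes, 40 of 568 (7.04%) regions of other protein coding genes and 4 of 55 (7.27%) small subunit regions. In at least 2 lists lay 13 regions (22.4%, interval 12.5 to 35.3%), against 26.7% of all regions, 21.7% of other coding regions and 32.7% of small subunit regions. Of the 12 regions in exactly 2 lists, 4 joined galactose and low glucose, 4 galactose and normal glucose, and 4 low and normal glucose. The members' regions were thus met by at least 2 lists at a share near that of other protein coding genes. Their share in all 3 lists was lower, with an interval that included the 7.04% of those genes.

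The proteins of the stalk, the flexible arm that draws translation factors to the ribosome, had peaks on all 4 genes, and galactose gave 3 of these peaks, low glucose 5 and normal glucose 8. RPLP2 had 1 galactose peak, 4 low glucose peaks and 3 normal glucose peaks. They fell into 5 regions. Near the start, low and normal glucose peaks lay 1 nt apart (chr11:809991-810092), 74 and 75 nt after the canonical start, in the first intron of the canonical transcript and in the 5'UTR of another. In the last coding exon, galactose and normal glucose middles lay 2 nt apart (chr11:812717-812819, exon 5). Over SNORA52 the low glucose peak sat at the 5' end of the snoRNA, as printed above, while the normal glucose peak had its middle 76 nt into it, and the 2 peaks shared 23 bases (chr11:811629-811808). The remaining RPLP2 regions were low glucose coding peaks in exon 2 (chr11:810220-810320) and exon 4 (chr11:812576-812676). Its partner RPLP1 had 1 region in the 5'UTR (chr15:69452771-69452964), where the normal glucose middle lay 35 nt and the galactose middle 82 nt after the start. RPLP0, the base on which both partners sit, had normal glucose coding peaks only, in exons 4 and 8 (chr12:120199096-120199196 and chr12:120196841-120196941). RPL12, which binds ribosomal RNA at the foot of the stalk, had galactose and low glucose peaks over SNORA65 (chr9:127448450-127448587) with middles 19 nt apart, a normal glucose peak at its transcript start (chr9:127451358-127451458), and a normal glucose coding peak in exon 5 (chr9:127448317-127448417).

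RPL5 and RPL11 join 5S ribosomal RNA into the particle that also restrains MDM2, the brake on p53. RPL5 had 1 galactose peak, 2 low glucose peaks and 1 normal glucose peak. At its 5' end (chr1:92831987-92832149) the galactose middle lay 3 nt before the start and the low glucose middle 59 nt after it, in exon 1. A low glucose peak lay in coding exon 3 (chr1:92833501-92833601), with its middle 6 nt from the start of that exon, and a normal glucose peak (chr1:92840667-92840767) at the 5' end of SNORA66 in intron 7. RPL11 had a single normal glucose peak in coding exon 5 (chr1:23695759-23695859), none of whose 30-base words recurred in the genome.

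Of the 8 genes for proteins along or around the exit tunnel, 6 had 1 peak each. In galactose these were RPL23A, a docking site of the signal recognition particle, in its coding sequence, and RPL35, whose peak middle fell on the first coding base, 45 nt after the transcript start. In low glucose they were RPL4, which lines the tunnel, with a 5'UTR peak 47 nt after the start, and RPL19, with a coding peak. In normal glucose they were RPL26 and RPL31, both coding. RPL17 and RPL39 had no row.

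Near the centre that joins amino acids, RPL10, which is among the last proteins to be loaded onto the subunit, had 1, 2 and 1 peaks. The low glucose peaks lay at the transcript start (chrX:154398324-154398424) and on the last base of coding exon 2 (chrX:154398492-154398592). The galactose peak at the 5' end of SNORA70 and the normal glucose peak, 82 nt into it, overlapped by 17 bases (chrX:154400229-154400413). RPL8 had 3 low glucose peaks, in coding exons 1 to 3 (chr8:144791961-144792179, chr8:144791802-144791902 and chr8:144791339-144791541), and a normal glucose peak in exon 5 (chr8:144789876-144789976). The first of these, 219 nt wide, also covered 31 bases of the microRNA gene MIR6850. RPL3 had normal glucose peaks alone, and both spanned the whole of a box C/D snoRNA, SNORD83A (193 nt wide) and SNORD83B (191 nt wide). RPL10A, the protein of the L1 stalk through which spent tRNA leaves, had 1 low glucose peak in coding exon 3.

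Among the other members, RPL38, linked in mice to the translation of Hox mRNAs, had 3 regions close to each other. Low glucose gave a peak at its start (chr17:74203627-74203727, middle 1 nt before the first base). Galactose and low glucose shared a site in intron 2 with the same middle (chr17:74203909-74204011), a region with no annotated small RNA. Galactose and normal glucose shared a coding site in exon 3 (chr17:74204083-74204187), with middles 5 and 3 nt from the first base of that exon. RPL28 had the identical start peak in low and normal glucose (chr19:55385880-55385980), and separate coding peaks in galactose (exon 2, chr19:55386342-55386442), normal glucose (exon 4, chr19:55387963-55388063) and low glucose (exon 5, chr19:55388207-55388353, over 36 bases of MIR6805). RPL32 had the site over SNORA7A in every list (chr3:12840261-12840502 in all) and normal glucose coding peaks in exons 2 and 3 (chr3:12840100-12840202 and chr3:12839452-12839552). RPL13 had a coding region in exon 2 with low and normal glucose middles 12 nt apart (chr16:89560937-89561103), a low glucose peak in exon 3 (chr16:89561234-89561334) and a normal glucose peak in exon 4 (chr16:89561622-89561722).

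The remaining members described here were each met by 1 list. RPL37A had 1 galactose peak, at its start. RPL27A had 2 low glucose peaks, 1 coding and 1 over SNORA3A. RPL18, RPL36 and RPL37 each had 1 low glucose coding peak, and RPL35A 1 low glucose peak in the 5'UTR part of exon 2. RPL24 and RPL27 each had 2 normal glucose coding peaks, and RPL23 and RPL30 each 1. The 18 members without a row were RPL3L, RPL6, RPL7, RPL7A, RPL9, RPL10L, RPL14, RPL15, RPL17, RPL21, RPL22, RPL29, RPL34, RPL36A, RPL36AL, RPL39, RPL39L and RPL41. A missing row says only that no peak was called. Of the 72 member peaks 24 were named for a further gene in the lists, which was the snoRNA or microRNA under the peak in 17. In the rest it was a neighbouring or antisense gene: DIPK1A for the coding peak of RPL5, IQCG for RPL35A, and genes without a symbol for RPL26, the coding peaks of RPL32 and the 2 low glucose peaks of RPL10.

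Coding sequence held the largest share of member peaks. Taking the place of the middle over all protein coding transcripts of the gene, with a middle before the first base counted to the 5'UTR, 41 of 72 peaks (56.9%, interval 44.7 to 68.6%) were coding, 18 (25%, interval 15.5 to 36.6%) in the 5'UTR, 13 (18.1%, interval 9.98 to 28.9%) in introns and none in the 3'UTR, which allows a share of up to 4.99%. The small subunit genes had nearly the same makeup, with 50% of 78 peaks coding and 5.13% in the 3'UTR. Of 727 peaks on other protein coding genes, 24.8% were coding (interval 21.7 to 28.1%), 45% intronic (interval 41.3 to 48.7%) and 5.09% in the 3'UTR (interval 3.61 to 6.95%). The genes of both subunits are short and densely exonic, and the length of exons and introns was not adjusted for. By list, the coding share of the members was 38.5% in galactose (5 of 13, interval 13.9 to 68.4%), 55.2% in low glucose (16 of 29, interval 35.7 to 73.6%) and 66.7% in normal glucose (20 of 30, interval 47.2 to 82.7%), which overlap. In the same order other protein coding genes gave 18.4%, 25.3% and 28.8%, and small subunit genes 39.1%, 59.4% and 47.8%. By the canonical transcript only, the 5'UTR share was 16.7% and the intronic share 26.4%. The peaks that moved were those of RPL32 and RPL27A over snoRNA genes and those of RPLP2 near its start. Of the 13 intronic peaks, 11 overlapped a snoRNA gene, and the other peaks over snoRNA genes, on RPL32 and RPL27A, were counted to the 5'UTR. Without peaks over small RNA genes the intronic share was 3.64% and the coding share 70.9%. The coding share was 50% when the 5'UTR of any transcript was given precedence over coding sequence, and 48% without single-site peaks that had G before the middle.

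**Figure D2:**
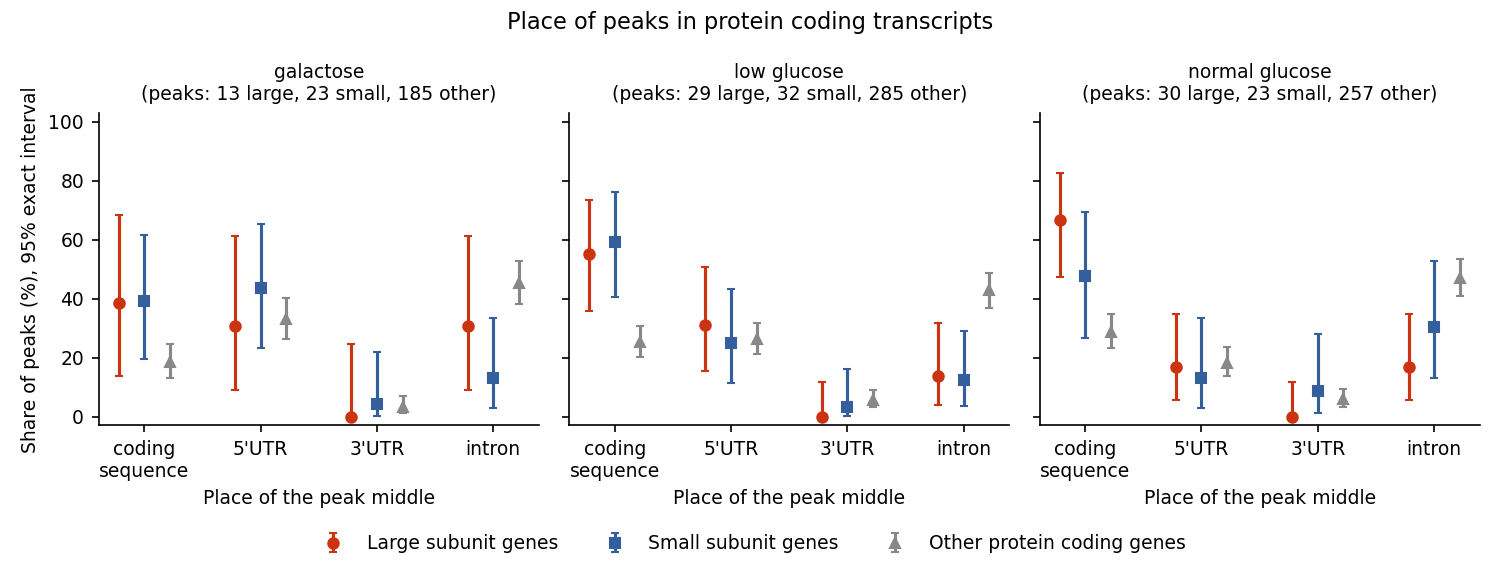
Share of peaks (%) with the middle in coding sequence, 5'UTR, 3'UTR or intron in each list, for large subunit genes (red circles), small subunit genes (blue squares) and other protein coding genes (grey triangles), with bars for exact 95% intervals. The large subunit genes rise from 38.5% to 66.7% coding from galactose to normal glucose with wide intervals, and stand at 0% in the 3'UTR of every list. Other protein coding genes also rise, from 18.4% to 28.8% coding.

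Along the coding sequence the median place of the middles varied between the lists, on few peaks. The median position, as a percentage from start to stop codon, was 8.52% in galactose (5 peaks), 18.7% in low glucose (16 peaks) and 47.9% in normal glucose (20 peaks). When the coding sequence was divided into 3 equal lengths, the part next to the start codon held 4 of 5 galactose peaks (80%, interval 28.4 to 99.5%). It held 11 of 16 in low glucose (68.8%, interval 41.3 to 89%) and 7 of 20 in normal glucose (35%, interval 15.4 to 59.2%), and the 3 intervals overlapped. The same order was seen on other protein coding genes, where that part held 89.7%, 68.2% and 29.6% of coding peaks, and the small subunit genes gave 55.6%, 63.2% and 54.5%. The early galactose sites were those of RPL35, RPL38, RPL28 and RPL23A, and the late one that of RPLP2. Normal glucose sites reached 87.9% of the coding sequence in RPLP0 and 84.6% in RPL8.

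**Figure D3:**
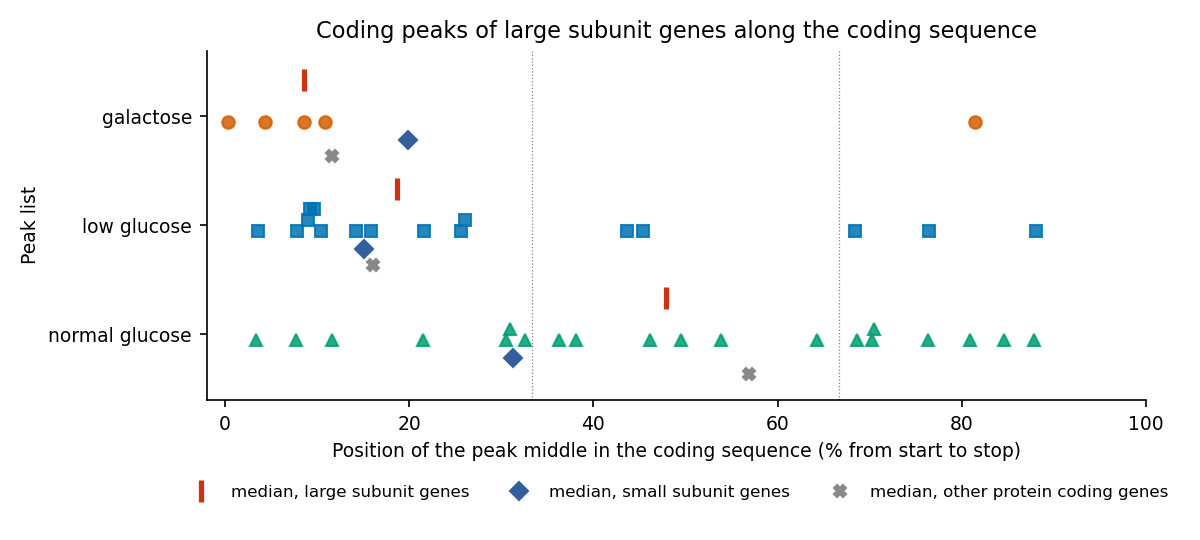
Position of each of the 41 coding peaks of the members along the coding sequence (%, start codon at the left) by list, with the medians of large subunit genes (red bars), small subunit genes (blue diamonds) and other protein coding genes (grey crosses). Galactose and low glucose peaks crowd to the left, with medians of 8.52% and 18.7%, and normal glucose peaks spread over the whole length, with a median of 47.9%.

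Some coding middles lay close to a splice boundary. In 10 of 41 coding peaks (24.4%, interval 12.4 to 40.3%) the middle lay within 10 nt of an exon boundary, against 15.4% of 39 small subunit and 7.23% of 166 other coding peaks (interval 3.79 to 12.3%). They were found in RPL5, RPL10, RPL27A, RPL32, RPL35, RPL38 and RPLP2, of which galactose gave 3, low glucose 4 and normal glucose 3. Whether the RNA was spliced cannot be told from positions, and exons of these genes are short, which was not adjusted for.

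At transcript starts, 10 member peaks (13.9%, interval 6.87 to 24.1%) on 9 genes had a middle within 50 nt of the canonical start, with 3, 4 and 3 in galactose, low and normal glucose. The small subunit share was 19.2% of 78 peaks and that of other protein coding genes 7.84% of 727 (interval 5.99 to 10%). Middles 1 to 3 nt before the first base made up 9.72% of member peaks (interval 4 to 19%), 5.13% of small subunit peaks and 2.75% of other coding peaks (interval 1.69 to 4.22%). That window was not among the planned distances. It spans exactly the distances seen on the members, so the comparison favours them, and the identical RPL28 site counts in 2 lists. In RPL5 and RPLP1, overlapping peaks of 2 lists near 1 start had different middles. In RPL5 galactose gave the site just before the first base and low glucose a site 59 nt into the transcript. In RPLP1 the normal glucose middle was the nearer. Both RPLP1 peaks were wider than a single-site peak (166 nt in normal glucose, 128 nt in galactose) and shared 100 bases, so their middles are not single sites.

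**Figure D4:**
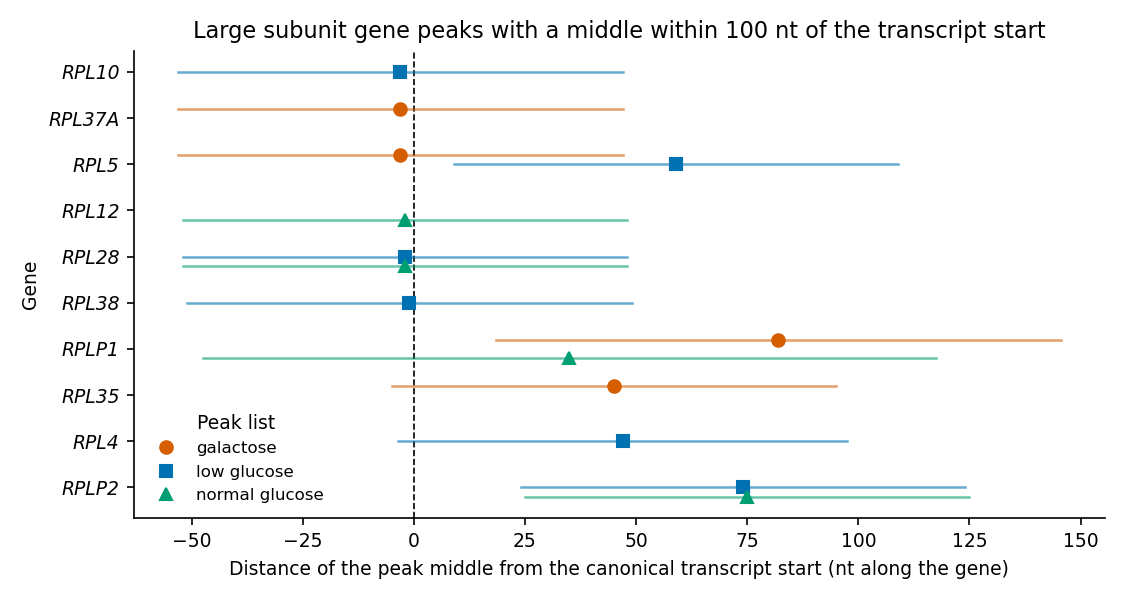
Distance (nt) of the peak middle (symbols) and extent of the peak (lines) from the annotated start of the canonical transcript, drawn as a dashed line at 0, for members with a middle within 100 nt of it. Symbols of RPL10, RPL37A, RPL12, RPL28 and RPL38 and the galactose symbol of RPL5 stand 1 to 3 nt before the start, and the low glucose symbol of RPL5 and those of RPLP1, RPL35, RPL4 and RPLP2 between 35 and 82 nt after it.

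In all, 15 member peaks (20.8%, interval 12.2 to 32%) overlapped a snoRNA gene on the strand of its host, of which galactose gave 4, low glucose 5 and normal glucose 6. They covered 9 snoRNA genes in 8 hosts, of which 7 were, by symbol, of the H/ACA kind, guides of pseudouridylation, and 2 of the box C/D kind, guides of ribose methylation. The share was 11.5% for the small subunit (interval 5.41 to 20.8%) and 5.23% for other protein coding genes (interval 3.73 to 7.1%). Such a peak cannot be assigned to the snoRNA or to the transcript of its host. Of the 139 bases of SNORA7A the galactose peak covered 139, the low glucose peak 112 and the normal glucose peak 133, and 57.7%, 69.9% and 67.9% of their 30-base words, in that order, occurred more than once in the genome.

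Among member peaks the base before the middle was G most often in normal glucose, though the intervals of the 3 lists overlapped. Single-site peaks whose genes all lay on the same strand had G there in 2 of 10 cases in galactose (20%, interval 2.52 to 55.6%), 4 of 12 in low glucose (33.3%, interval 9.92 to 65.1%) and 16 of 22 in normal glucose (72.7%, interval 49.8 to 89.3%). In coding sequence of normal glucose the count was 15 of 18 (83.3%, interval 58.6 to 96.4%), and outside it 1 of 4. For other protein coding genes in that list it was 77.4% of 53 inside coding sequence and 49.4% of 83 outside. For small subunit genes it was 63.6% of 11 inside and 66.7% of 6 outside. Other protein coding genes moved with the members, at 25.3%, 28.2% and 60.3% in the 3 lists, so the rise was not confined to the members. RNase T1 cuts after G, and the part of its cuts in the members' normal glucose peaks was not tested.

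**Figure D5:**
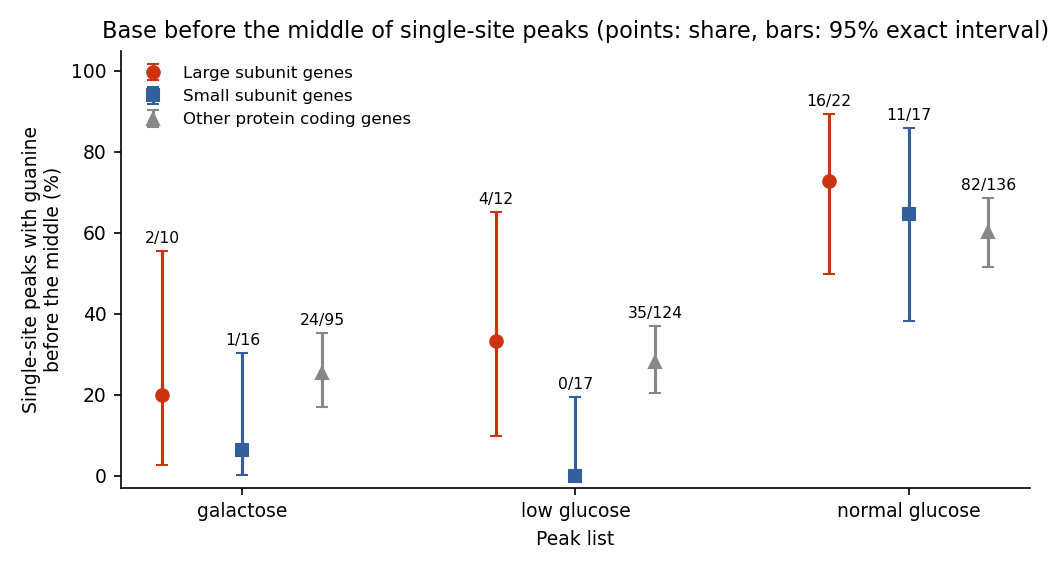
Share of single-site (101 nt) peaks with guanine just before the middle (%), by list, for large subunit genes (red circles), small subunit genes (blue squares) and other protein coding genes (grey triangles), with exact 95% intervals and the count over each bar. Normal glucose stands highest in all 3 sets, with 16 of 22 member peaks against 2 of 10 in galactose and 4 of 12 in low glucose.

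Repeated sequence was counted in the same way. More than 50% of the 30-base words of a peak recurred in the genome in 2 of 13 galactose, 3 of 29 low glucose and 11 of 30 normal glucose member peaks (15.4%, interval 1.92 to 45.4%, 10.3%, interval 2.19 to 27.4%, and 36.7%, interval 19.9 to 56.1%), and these intervals overlap. In the same order the shares were 13%, 12.5% and 21.7% for the small subunit and 11.9%, 8.77% and 17.9% for other protein coding genes, so normal glucose was highest in each set. Of the 41 coding peaks 33 (80.5%, interval 65.1 to 91.2%) shared at least 1 such word with an annotated pseudogene, against 92.3% of 39 small subunit and 30% of 180 other coding peaks. The share of recurring words was highest, at 93.1%, in the exon 8 peak of RPLP0, followed by a normal glucose peak of RPL13 at 81.9%, and the galactose peak of RPL23A had words in 42 pseudogenes. For these peaks the gene named in the list is uncertain, since a read could stem from a copy. By contrast, no word recurred in the coding peaks of RPL38 and RPL11, in the last-exon peaks of RPLP2, or in the start peaks of RPL5, RPL10, RPL28, RPL37A and RPL38.

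Among genes related to the family, RPL22L1 and RPL7L1 had no peak. Of 16 other TOP mRNAs 4 had a peak: RACK1, a ribosome-bound scaffold protein, in all 3 lists, the elongation factor EEF2 and the poly(A)-binding protein PABPC1 in low and normal glucose, and VIM, which encodes vimentin, in low glucose. Of 20 factors of 60S assembly and export only NOP53 had one, in normal glucose. These counts stand beside 560 of 19701 protein coding genes with a peak. No gene of the mitochondrial large subunit (MRPL symbols) had a row.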

How the data were processed

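GAPDH CLIP-seq was measured in 6 samples, 2 per medium. PureCLIP called the crosslink sites, per the study's methods, after which neighbouring sites were joined and lone sites were lengthened. Trimming and alignment tools named by the submitters' processing notes are cutadapt and STAR (versions not given in the sources used here), with hg38 (GRCh38) as the build. The deposited files hold 1 list per medium, joined over both samples by the authors, with chromosome, start, end, gene identifier and symbol, and no other value. Peak thresholds and the joining rule, which decide what can appear in a list, are the authors'.

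Each distinct set of chromosome, start and end within a list counted as 1 peak, with positions taken as 1-based and inclusive. All 72 member rows matched GENCODE release 44 by identifier and symbol. Canonical transcripts were those tagged by Ensembl. Small RNA genes came from GENCODE and from RefSeq (GRCh38.p14). Peaks of different lists that shared at least 1 nt were joined into regions. A peak was recurrent where more than 50% of its 30-base words occur more than once in hg38 on either strand. Counts used Python 3.11.15, scipy 1.17.1 and pysam 0.24.0, and were tested on simulated lists. The text names the members with a peak, except 1 that is not reported here by name, though all counts include it, and gives coordinates for those with a region in several lists or at least 3 peaks, and prints sequences of shared sites. The members and gene lists were chosen with earlier results of these data known. Alternatives were other overlap rules, places, start distances and lists without small RNA genes or recurrent sequence.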

Additional observations from a re-analysis of the deposited data

How the results depend on the processing

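No paired analysis was possible because each list joins both samples of its medium, and leaving out a replicate could not be run for the same reason. Of 66 alternatives 52 left the value within its interval or within 1.5 times the count. Among these, reading the starts as 0-based could not move the computed middle of a single-site peak. That reading was tried for the place of peaks only. Statements exact to 1 nt, such as distances to a start and the base before the middle, therefore rest on the 1-based reading. Regions in all 3 lists (1 as reported) became 0 with middles at most 10 nt apart, without peaks over small RNA genes, without recurrent peaks and without peaks named for several genes, 3 with peaks up to 50 nt apart joined, and 7 when genes were counted. Regions in exactly 2 lists (12) became 7 with middles at most 10 nt apart and 4 by genes, and those in 1 list (45) became 20 by genes. By the place holding most bases of the peak, the 5'UTR share (25%) became 13.9% and the intronic share (18.1%) 31.9%. Without peaks over small RNA genes the intronic share was 3.64% and the coding share (56.9%) 70.9%. Of 17 peaks over small RNA genes, 2 of them microRNAs, 10 had the middle inside the gene. The share near starts (13.9%) lay between 9.72%, with a distance of at most 20 nt, and 22.2%, with the start of any coding transcript. No alternative gave a 3'UTR peak. The depth of the lists is unknown, so the absence of a peak sets no limit on binding.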

Other observations

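GC content of the member peaks had a median of 56.4% in coding sequence (31.7 to 76.2%), 60.4% in the 5'UTR (35 to 77.2%) and 57.4% in introns (44.9 to 75.2%). In the 5'UTR, peaks of other protein coding genes had a median of 69.3% and those of small subunit genes 63.4%. The lowest member value was that of the low glucose RPL5 coding peak (31.7%), and the highest those of the RPLP2 peaks near the start (77.2% in low and in normal glucose).

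The median width of member peaks was 101 nt in each list. Single-site peaks of that width were 15 of 29 in low glucose (51.7%, interval 32.5 to 70.6%), 10 of 13 in galactose (76.9%, interval 46.2 to 95%) and 24 of 30 in normal glucose (80%, interval 61.4 to 92.3%), with intervals that overlap. The widest were 242 nt in galactose, over SNORA7A in RPL32, 219 nt in low glucose, in RPL8, and 193 nt in normal glucose, over SNORD83A in RPL3. The small subunit genes gave 53.1%, 73.9% and 82.6% in low glucose, galactose and normal glucose.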
